A study of Homo sapiens with 9 samples.

Results

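The genes described here make cholesterol and fatty acids and are known targets or parts of the SREBP pathway. They are 32 of the 24542 rows of the count table, taken by matching Ensembl identifiers to a list of gene symbols, and the list holds 8 mevalonate enzymes, 11 sterol enzymes, 6 regulators and sterol carriers, and 7 fatty acid enzymes. All 32 were found and all 32 passed the filter on low counts. The cells were A2780, an established human ovarian carcinoma line labelled wild type, grown in DMEM with fetal bovine serum. For 96 h they received 0.5% DMSO as the control, or cisplatin at 0.6 µM, or Pt-ttpy at 5.5 µM. Each drug was given at what the labels call its IC80. No DMSO percentage is given for the drug groups, and the part of a solvent difference in the changes was not tested. Cisplatin forms crosslinks in DNA, and Pt-ttpy is named in the series title as a complex of platinum that binds G-quadruplexes, folded forms of guanine-rich DNA. Each group has 3 libraries numbered as biological replicates. No source says that they came from separate cultures, so p-values measure the spread between these libraries, which may be technical. The stated aim was to find the genes on which Pt-ttpy acts.

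SREBP transcription factors are made as precursors in the membrane of the endoplasmic reticulum. When sterols are scarce, SCAP escorts them to the Golgi, where proteases release the part that enters the nucleus. When sterols are plentiful, the INSIG proteins hold SCAP in the endoplasmic reticulum and the target genes fall quiet. SREBF2 encodes the form known mainly for the cholesterol genes, and SREBF1 the form known mainly for the fatty acid genes. Sterol excess is also sensed by the nuclear receptor LXR, which turns on genes that export cholesterol.

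Sequence upstream of a RefSeq start of 5 of the genes is shown because the results below turn on them. DHCR7, INSIG1 and SCD were called lower with cisplatin, and INSIG2 was called higher with Pt-ttpy. SREBF2 holds a match to the letters used here for the pathway's own response element. The stretches end before the first exon of any protein-coding gene, are read 5′ to 3′ on the gene's strand, and come from RefSeq on GRCh38.p14, with the first window by position where a gene has more than 1. Capitals mark matches, on either strand, to the sterol response element TCACNCCAC, the CCAAT box, the GC box GGGCGG or the E-box CACGTG.
SREBF2: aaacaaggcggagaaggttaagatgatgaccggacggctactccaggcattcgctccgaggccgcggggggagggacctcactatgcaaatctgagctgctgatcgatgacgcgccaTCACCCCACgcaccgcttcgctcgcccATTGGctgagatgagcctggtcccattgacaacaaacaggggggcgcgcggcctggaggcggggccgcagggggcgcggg
DHCR7: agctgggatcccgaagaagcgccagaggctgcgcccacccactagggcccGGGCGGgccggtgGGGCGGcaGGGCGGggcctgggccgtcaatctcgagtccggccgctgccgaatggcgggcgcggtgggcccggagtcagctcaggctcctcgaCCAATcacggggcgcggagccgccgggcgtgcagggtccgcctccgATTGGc
INSIG1: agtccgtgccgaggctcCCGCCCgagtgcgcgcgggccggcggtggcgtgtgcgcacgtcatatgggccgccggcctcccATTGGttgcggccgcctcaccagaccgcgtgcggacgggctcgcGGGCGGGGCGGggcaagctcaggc
SCD: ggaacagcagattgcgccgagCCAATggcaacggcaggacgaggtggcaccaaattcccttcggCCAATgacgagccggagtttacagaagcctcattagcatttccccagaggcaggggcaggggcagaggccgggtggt
INSIG2: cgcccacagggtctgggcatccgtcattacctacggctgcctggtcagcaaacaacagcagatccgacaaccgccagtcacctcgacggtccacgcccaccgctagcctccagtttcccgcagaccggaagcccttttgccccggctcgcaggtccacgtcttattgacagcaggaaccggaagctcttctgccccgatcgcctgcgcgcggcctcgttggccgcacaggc
The positions are chr22:41832855-41833078, plus strand for SREBF2, chr11:71448436-71448643, minus strand for DHCR7, chr7:155297628-155297775, plus strand for INSIG1, chr10:100346983-100347123, plus strand for SCD, and chr2:118088221-118088451, plus strand for INSIG2. The DHCR7 stretch lies before one of its RefSeq starts and inside the longer GENCODE span given for the gene below. The SREBF2 stretch holds 1 sterol response element and 1 CCAAT box. CCAAT boxes number 2 in the DHCR7 stretch, 2 in the SCD stretch and 1 in the INSIG1 stretch, and GC boxes number 3 in DHCR7 and 3 in INSIG1. The INSIG2 stretch holds no match to these letters, and its only match in the full window, 1 GC box, lies in the part left off. The parts left off also held at least 1 GC box each for SREBF2, DHCR7, INSIG1 and SCD, and an E-box for INSIG1.

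Over the full RefSeq windows, 250 bases before to 50 after each start, 28 of the 32 genes had 39 windows. At least 1 CCAAT box was found in 24 of them (61.5%), against 34.6% of all 35116 windows of the table. The GC box was found in 35 (89.7%, against 45% of all), the E-box in 5 (12.8%, against 7.26%) and the sterol response element in 1 (2.56%, against 1.13%), that of SREBF2. The G-quadruplex pattern of 4 runs of at least 3 G, with loops of 1 to 7 bases and on either strand, was found in 16 (41%, against 25%). These matches are descriptions of the reference letters, and they can overlap each other. The comparison counts windows of all genes, expressed in these cells or not. Whether the gaps are particular to the pathway was not tested. Variants of these letters, and sequence outside the windows, were not searched, so a gene without a match may still hold such an element. Genes with the G-quadruplex pattern included DHCR7, CYP51A1, INSIG1, ACLY, SREBF2 and TM7SF2, while INSIG2 and SCD had none.

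The libraries held 31.3 to 40.8 M counts, and the 32 genes took 0.856% to 1.01% of each. Levels below are CPM, with library sizes adjusted by TMM factors. DMSO 2 and cisplatin 2 stood apart from the rest of their groups in a way that followed the GC content of the transcripts. Across the 32 genes, the difference between DMSO 2 and the other DMSO libraries ran with GC content at r = 0.89, and that of cisplatin 2 at r = 0.74, while that of Pt-ttpy 2 gave r = 0.09. These are descriptions over genes that share the same libraries. The median SD of a gene's log2 level within a group was 0.214 with DMSO, 0.224 with cisplatin and 0.056 with Pt-ttpy. Results are therefore given with all 9 libraries and again with the 7 libraries left without DMSO 2 and cisplatin 2. The 7-library fit keeps only 2 DMSO and 2 cisplatin libraries and drops those that stood apart. Its smaller p-values are therefore not independent or stronger support. A correction of the 9-library fit for GC content, chosen after seeing the data, gave 2 of the genes higher and 7 lower with cisplatin, and 6 higher and 0 lower with Pt-ttpy. In that fit of 13383 genes, 17.1% of all genes were called higher and 18.5% lower with cisplatin, and 12.5% and 13.4% with Pt-ttpy. The shares of the 32 genes called lower with cisplatin and higher with Pt-ttpy were thus near those of all genes. Those called higher with cisplatin (2) and lower with Pt-ttpy (0) were below the shares of all genes. Markers of the labelled cell type were near 0, since PAX8, WT1, MUC16 and ESR1 reached at most 0.444 CPM and the epithelial markers at most 1.78 CPM. All 5 fibroblast markers passed 1 CPM, and their summed level was 884 to 990.2 CPM with DMSO, 1510 to 1796 with cisplatin and 1590 to 1665 with Pt-ttpy. The epithelial markers summed to 0.05 to 0.507 CPM with DMSO, 1.25 to 3.13 with cisplatin and 0.555 to 0.987 with Pt-ttpy. Of 5 leukocyte markers only CD68 passed 1 CPM, at up to 5.54, and adipocyte and hepatocyte markers reached at most 0.169 and 0.2 CPM. The part of all these markers in the results was not tested.

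**Figure D1:**
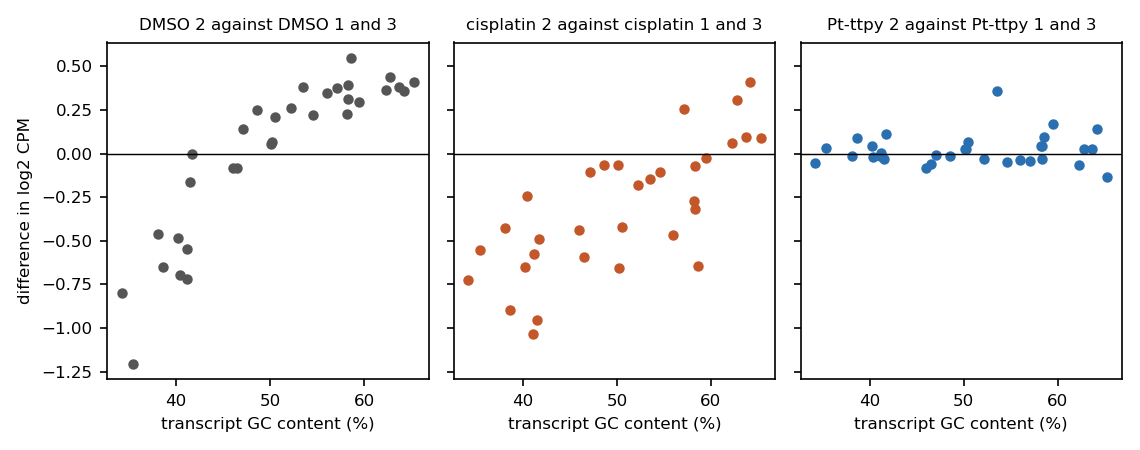
Transcript GC content (x axis, percent) against the difference in log2 CPM (y axis) between replicate 2 and the mean of replicates 1 and 3 of its group, 1 point per gene (32 genes) for DMSO, cisplatin and Pt-ttpy. The differences run from -1.20 to 0.55 for DMSO 2 and from -1.03 to 0.41 for cisplatin 2, climbing with GC content, and stay between -0.13 and 0.36 for Pt-ttpy 2.

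Per kilobase of exon, the fatty acid enzymes SCD, FASN and ACLY were the most abundant of the genes in DMSO-treated cells. SCD, the desaturase that makes oleate, stood at 379.6 CPM per kb on average, FASN, the fatty acid synthase, at 192 and ACLY, which makes cytosolic acetyl-CoA from citrate, at 172. FDPS, the farnesyl diphosphate synthase, led the mevalonate enzymes at 166 CPM per kb, and DHCR7, a reductase of the last steps to cholesterol, led the sterol enzymes at 87.9. The scarcest were FADS2 at 4.17 and INSIG2 at 2.72 CPM per kb.

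With cisplatin, 7 of the 32 genes were called lower (ACAT2, MVK, CYP51A1, DHCR7, INSIG1, SCD and ACLY) and 1 higher (TM7SF2), at an adjusted p under 0.05 in edgeR's quasi-likelihood test. Over all 15558 genes tested, 9.78% were called lower and 10.7% higher. Scaling moved this split, to 4 lower (CYP51A1, DHCR7, SCD and ACLY) and 2 higher (TM7SF2 and SREBF2) with upper-quartile factors (5.87% and 12.5% of all genes), and to 3 lower (DHCR7, SCD and ACLY) and the same 2 higher with library totals (6.06% and 12.8%). With Pt-ttpy, 1 gene was called higher (INSIG2), against 5.59% of all genes, and 0 lower, against 6.45%. At an unadjusted p under 0.05, Pt-ttpy gave 5 higher and 2 lower (14.4% and 15.4% of all genes), and DESeq2's Wald test called 1 higher (INSIG2) and 0 lower, against 8.64% and 9.58%. The same unadjusted threshold gave 2 higher and 12 lower with cisplatin (17.7% and 17.4% of all genes). The cisplatin and DMSO groups did not overlap for 1 gene higher and 12 lower, against 18.6% and 19.4% of all genes, and the Pt-ttpy and DMSO groups for 8 higher and 8 lower, against 20.3% and 20.6%. The median log2 change of the 32 genes was -0.14 with cisplatin and -0.03 with Pt-ttpy, where the medians over all genes were 0.01 and 0.03. Scaling by upper-quartile factors or library totals turned the Pt-ttpy median to 0.04, and moved the median over all genes to 0.10, so the 32 genes stayed below it. Both comparisons use the same DMSO libraries, so their likeness is not independent. In bulk RNA, fewer cells of a type and less RNA per cell cannot be told apart.

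**Figure D2:**
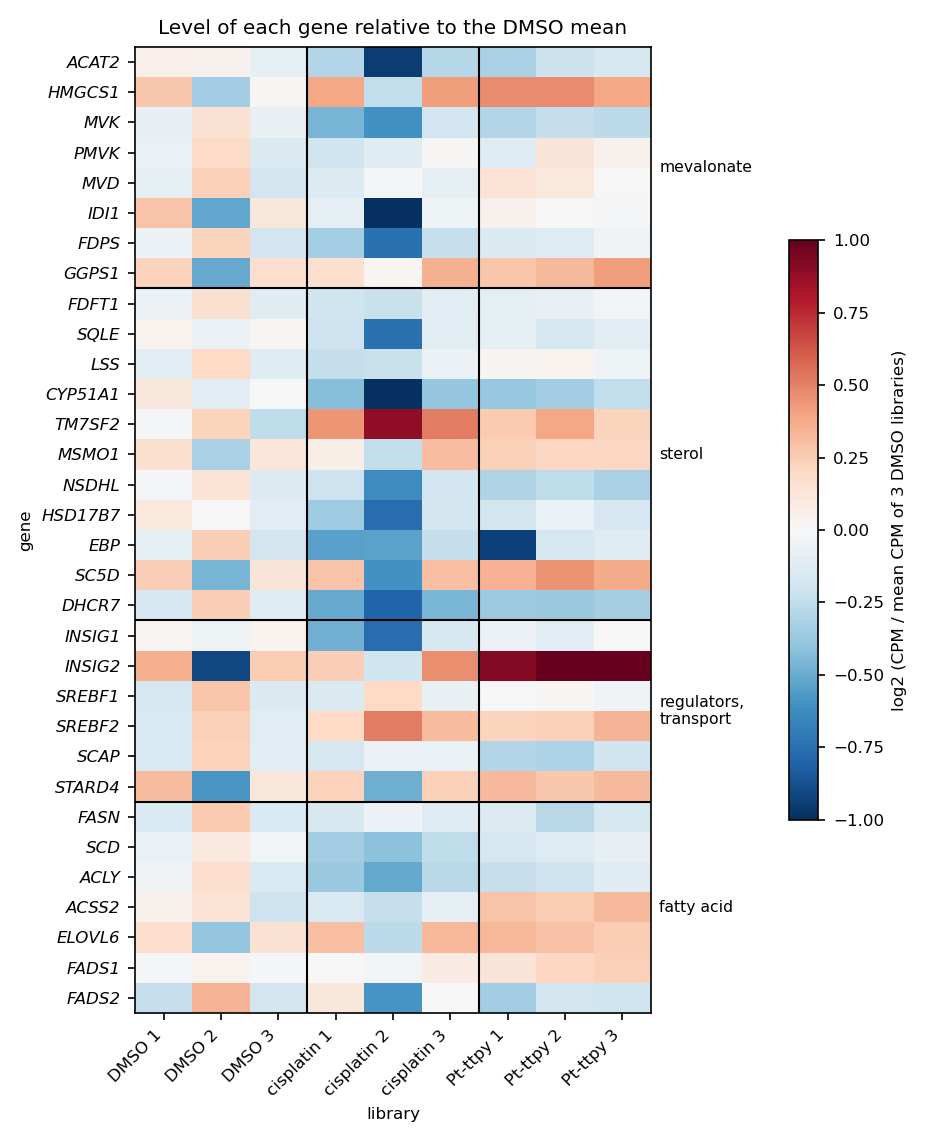
Level of each of the 32 genes (rows, grouped by role) in each of the 9 libraries (columns), as log2 of its CPM over the mean CPM of the 3 DMSO libraries, with the color scale capped at -1 and 1. Cisplatin 2 is the lowest cisplatin library for 23 of the 32 genes, and INSIG2 is high in all 3 Pt-ttpy libraries.

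**Figure D3:**
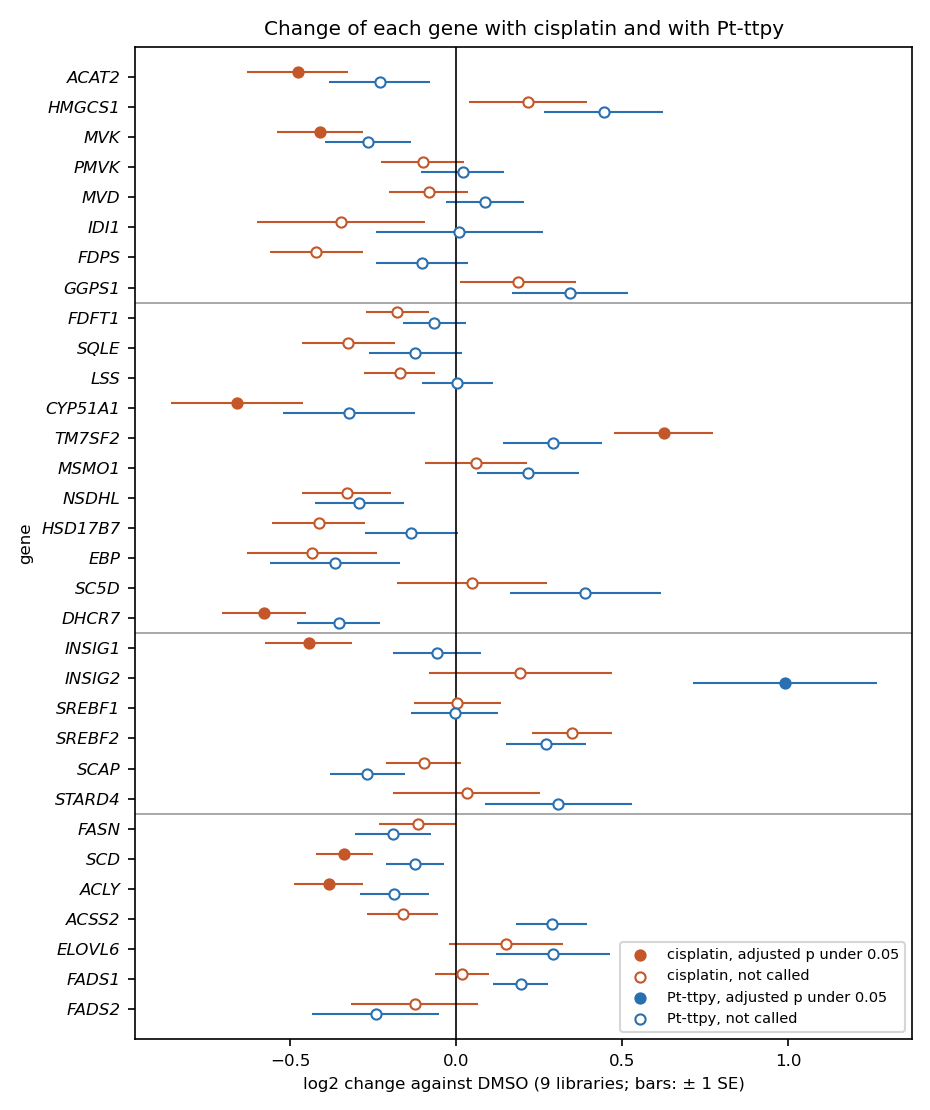
Fitted log2 change against DMSO (x axis) of each gene (y axis) with cisplatin and with Pt-ttpy, over 9 libraries, with bars of 1 SE and filled points for an adjusted p under 0.05. Filled points number 8 for cisplatin, 7 of them below 0, and 1 for Pt-ttpy, INSIG2.

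Without DMSO 2 and cisplatin 2 the calls were more numerous and more evenly split. Cisplatin then gave 9 genes lower and 5 higher, against 16.4% and 13.9% of all 15646 genes tested. Pt-ttpy gave 6 lower and 10 higher, against 17.4% and 15.8%. The median log2 change became -0.01 with cisplatin and 0.03 with Pt-ttpy, where the medians over all genes were 0.00 and 0.02. With both drugs 5 genes were called lower (ACAT2, IDI1, SQLE, CYP51A1 and DHCR7) and 4 higher (HMGCS1, TM7SF2, SREBF2 and ELOVL6). None was called in opposite directions. The same remaining DMSO libraries serve both comparisons, so this likeness between the drugs is not independent. The share of all genes called with both drugs is not given here, so whether these counts are particular to the pathway was not tested.

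Among the 8 mevalonate enzymes, which build isoprene units from acetyl-CoA, 2 were called lower with cisplatin and none with Pt-ttpy in either direction, with 9 libraries. For this and the next 3 groups of genes, the shares of all genes were 9.78% lower and 10.7% higher with cisplatin. With Pt-ttpy they were 6.45% and 5.59%. The groups are small, and their counts were not tested against these shares. ACAT2 (ENSG00000120437, chr6:159760328-159779055), the cytosolic thiolase of the first step, gave 264, 262 and 238 CPM with DMSO, 207, 132 and 209 with cisplatin, and 203, 219 and 228 with Pt-ttpy. Every cisplatin library was below every DMSO library, with cisplatin 2 by far the lowest. The fitted log2 change with cisplatin was -0.48 ± 0.15 SE (adjusted p = 0.0448), and without DMSO 2 and cisplatin 2 it was -0.26 (adjusted p = 0.00342). The 9-library call was lost without any 1 DMSO or Pt-ttpy library or cisplatin 2, at adjusted p up to 0.101. MVK (ENSG00000110921, chr12:109573255-109598117), mevalonate kinase, gave 38.5, 45.2 and 38.7 CPM with DMSO, 29.5, 26.8 and 35.7 with cisplatin, and 33.2, 34.7 and 34.0 with Pt-ttpy. Its groups did not overlap either, and it fell by 0.41 ± 0.13 SE on the log2 scale with cisplatin (adjusted p = 0.0429). With 7 libraries its change of -0.24 no longer passed (adjusted p = 0.0727), nor did it in 8 of the 9 fits that left out 1 library, all but the one without cisplatin 3. Exons of ACAT2 overlap TCP1 and SOD2 and those of MVK overlap MMAB, all on the opposite strand, and with the strandedness of the counting unstated their reads may be shared.

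HMGCS1, the HMG-CoA synthase, had values in the other direction. It gave 248, 162 and 208 CPM with DMSO, 270.2, 174 and 275 with cisplatin, and 286, 286 and 269 with Pt-ttpy, so that every Pt-ttpy library was above every DMSO library. Its log2 change with Pt-ttpy was 0.44 ± 0.18 SE and did not pass (adjusted p = 0.120), but with 7 libraries it rose with Pt-ttpy (0.30, adjusted p = 0.00169) and with cisplatin (0.26, adjusted p = 0.00931). IDI1, which isomerises the isoprene units, gave 282, 162 and 251 CPM with DMSO, 216, 107 and 224 with cisplatin and 239, 232 and 229.6 with Pt-ttpy. The second library of both the DMSO and the cisplatin group was its lowest. IDI1 was not called with 9 libraries, and was lower with both drugs with 7 (-0.27 with cisplatin and -0.19 with Pt-ttpy).

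FDPS just missed the threshold with cisplatin (-0.42 ± 0.14 SE, adjusted p = 0.0513) and has 8 named pseudogenes that could share its reads. MVD, the decarboxylase of the pathway, was called higher with Pt-ttpy only in the 7-library fit (0.23, adjusted p = 0.00744). PMVK, the second mevalonate kinase step, and GGPS1, which makes a lipid for protein prenylation, were not called with either drug in either fit. GGPS1 had log2 changes of 0.19 with cisplatin and 0.34 with Pt-ttpy.

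Of the 11 sterol enzymes, which make squalene and turn it into cholesterol, 2 were called lower and 1 higher with cisplatin, with a median log2 change of -0.33. None was called with Pt-ttpy, where the median was -0.12. With 7 libraries the medians were alike, -0.12 with cisplatin and -0.13 with Pt-ttpy. Cisplatin then gave 4 lower and 1 higher, and Pt-ttpy 4 lower and 2 higher. Of all genes, 16.4% were then lower and 13.9% higher with cisplatin, and 17.4% and 15.8% with Pt-ttpy. DHCR7 (ENSG00000172893, chr11:71428193-71452868) held its call in more fits than any other gene of the set. It gave 326, 435 and 337 CPM with DMSO, 257, 210.1 and 267 with cisplatin, and 285, 282 and 291 with Pt-ttpy. Both drug groups lay below the DMSO group, with means of 366 ± 59.9 (SD, n = 3) with DMSO, 245 ± 30.3 with cisplatin and 286 ± 4.53 with Pt-ttpy. It fell by 0.58 ± 0.13 SE on the log2 scale with cisplatin (adjusted p = 0.0100), and kept that call in all 9 fits that left out 1 library. With Pt-ttpy its change was -0.35 ± 0.13 SE (adjusted p = 0.0842). Without DMSO 2 and cisplatin 2 it was called with both drugs, at -0.33 for cisplatin and -0.21 for Pt-ttpy (adjusted p = 5.95e-05 and 0.00141).

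CYP51A1 (ENSG00000001630, chr7:92112151-92134803), the lanosterol demethylase, gave 298, 256 and 275 CPM with DMSO, 205, 108 and 211 with cisplatin, and 212, 217 and 233 with Pt-ttpy. Neither drug group overlapped DMSO, and cisplatin 2 was far below the other cisplatin libraries. The log2 change with cisplatin was -0.66 ± 0.20 SE (adjusted p = 0.0377), and the call was lost without any 1 DMSO or Pt-ttpy library, at adjusted p up to 0.0931. The 7-library values were -0.45 with cisplatin and -0.37 with Pt-ttpy (adjusted p = 1.35e-05 and 3.14e-05), so both drugs then lowered it. Its exons overlap 2 readthrough genes and it has 3 named pseudogenes.

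TM7SF2 (ENSG00000149809, chr11:65111845-65116384), a sterol reductase, was the sole sterol enzyme called higher with 9 libraries. It gave 40.2, 47.5 and 34.2 CPM with DMSO, 55.1, 75.0 and 57.9 with cisplatin, and 48.7, 53.0 and 47.3 with Pt-ttpy. The cisplatin libraries lay above both other groups. It rose by 0.63 ± 0.15 SE on the log2 scale with cisplatin (adjusted p = 0.0144), a call that, when 1 library at a time was left out, was lost only without DMSO 3. With Pt-ttpy it changed by 0.29 ± 0.15 SE (adjusted p = 0.215), and with 7 libraries it rose with both drugs (0.61 and 0.42). In the contrast of Pt-ttpy against cisplatin it was the one gene with an unadjusted p under 0.05 in the lower direction (-0.34 ± 0.15 SE, adjusted p = 0.597).

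The other 8 sterol enzymes were not called with 9 libraries. HSD17B7, a sterol ketoreductase, just missed with cisplatin (-0.41 ± 0.14 SE, adjusted p = 0.0558) and was called lower with 7 libraries (-0.26). SQLE, the squalene epoxidase, was lower with both drugs with 7 libraries (-0.18 and -0.15). NSDHL, a sterol dehydrogenase, was then called lower with Pt-ttpy (-0.22), and SC5D, a desaturase, higher with it (0.21). EBP, the sterol isomerase, had the widest Pt-ttpy values, 48.7, 82.7 and 85.6 CPM, with Pt-ttpy 1 well below the other libraries of its group, and it was not called in either fit. FDFT1, the squalene synthase, LSS, the lanosterol synthase, and MSMO1, a sterol oxidase, were not called in either fit.

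Among the 6 regulators and carriers, INSIG1 was called lower with cisplatin and INSIG2 higher with Pt-ttpy. INSIG1 (ENSG00000186480, chr7:155297776-155310235) is a retention factor and itself a sensitive target of SREBP. It gave 174, 165 and 175 CPM with DMSO, 122, 101 and 153 with cisplatin, and 164, 158 and 170.3 with Pt-ttpy. The cisplatin libraries lay below both other groups, which overlapped. It fell by 0.45 ± 0.13 SE on the log2 scale with cisplatin (adjusted p = 0.0347), and by 0.33 with 7 libraries (adjusted p = 0.0130). The 9-library call was lost without DMSO 1, DMSO 3, cisplatin 1, cisplatin 2 or any 1 Pt-ttpy library, at adjusted p up to 0.0890. With Pt-ttpy it changed by -0.06 ± 0.13 SE (adjusted p = 0.804), with a 95% interval of -0.35 to 0.23. Pt-ttpy against cisplatin gave 0.39 ± 0.13 SE, which did not pass (adjusted p = 0.392).

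INSIG2 (ENSG00000125629, chr2:118088452-118110997) is the second retention factor and is not induced by SREBP. It gave 13.8, 5.73 and 12.8 CPM with DMSO, 12.8, 9.36 and 14.9 with cisplatin, and 20.3, 21.7 and 22.2 with Pt-ttpy. All Pt-ttpy libraries were above all others, and DMSO 2 was the lowest library of all. The log2 change with Pt-ttpy was 0.99 ± 0.28 SE, or 1.99-fold (adjusted p = 0.0385). Leaving out DMSO 3, cisplatin 1 or any 1 Pt-ttpy library lost the call, with adjusted p up to 0.117. Fewer of all genes were called with Pt-ttpy in those fits too. With cisplatin INSIG2 changed by 0.19 ± 0.28 SE (adjusted p = 0.658). Pt-ttpy against cisplatin gave 0.80 ± 0.28 SE with 9 libraries, which did not pass (adjusted p = 0.396). Without DMSO 2 and cisplatin 2 INSIG2 rose with Pt-ttpy by 0.69 (adjusted p = 0.000179), and was higher with Pt-ttpy than with cisplatin by 0.63 (adjusted p = 0.00288). Its transcript is GC-poor, at 35.4% G and C.

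SREBF2 (ENSG00000198911, chr22:41833079-41907308) encodes the cholesterol form of SREBP. It gave 351, 462 and 361 CPM with DMSO, 449.5, 558 and 488 with cisplatin, and 457, 462 and 496 with Pt-ttpy. The drug libraries lay above DMSO 1 and 3 and overlapped DMSO 2 alone. With 9 libraries its log2 changes of 0.35 ± 0.12 SE with cisplatin and 0.27 ± 0.12 SE with Pt-ttpy missed the threshold (adjusted p = 0.0591 and 0.158). With 7 libraries it rose by 0.40 and 0.41 (adjusted p = 2.52e-05 and 7.51e-06). SREBF1, which encodes the other form, gave 257, 352 and 263 CPM with DMSO, 264, 334 and 277 with cisplatin, and 292, 293 and 284 with Pt-ttpy. It had log2 changes of 0.00 ± 0.13 SE and -0.00 ± 0.13 SE, and only the 7-library fit called it, higher with Pt-ttpy (0.16, adjusted p = 0.0113). SCAP, the escort, was at -0.27 ± 0.11 SE with Pt-ttpy (adjusted p = 0.137), and STARD4, a cytosolic sterol carrier, at 0.31 ± 0.22 SE (adjusted p = 0.383). Neither was called in either fit.

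**Figure D4:**
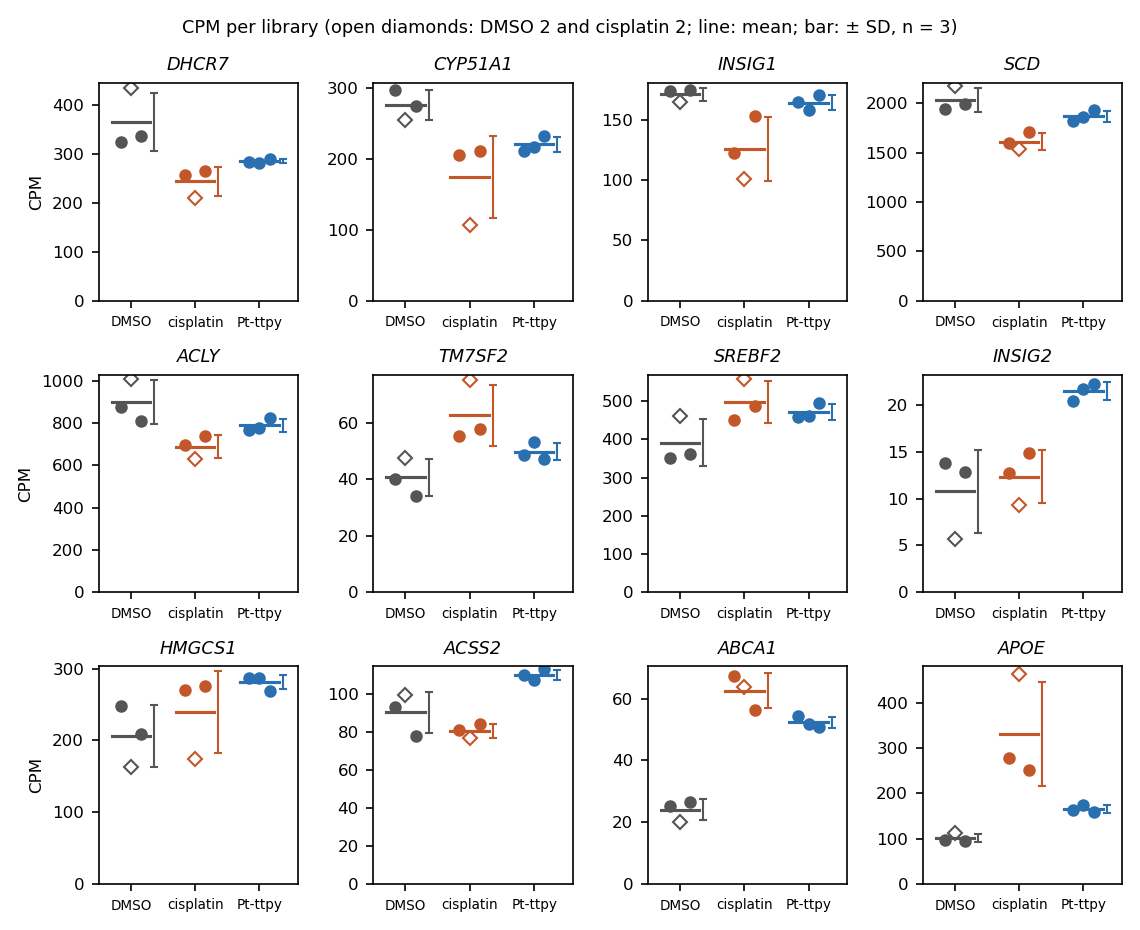
CPM (y axis, from 0) in each library for 12 genes, with a line at the group mean and a bar of SD (n = 3), and open diamonds for DMSO 2 and cisplatin 2. DHCR7, CYP51A1 and SCD are lower in every cisplatin library than in every DMSO library, while INSIG2 and ACSS2 are highest in the 3 Pt-ttpy libraries.

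Of the 7 fatty acid enzymes, 2 were called lower with cisplatin and none with Pt-ttpy, in the fit of 9 libraries, against 9.78% and 6.45% of all genes. With 7 libraries cisplatin gave 2 lower and 2 higher, and Pt-ttpy 0 lower and 3 higher. Of all genes, 16.4% were then lower and 13.9% higher with cisplatin, and 17.4% and 15.8% with Pt-ttpy. SCD (ENSG00000099194, chr10:100347124-100364834) gave 1940.2, 2172 and 1994 CPM with DMSO, 1596, 1535 and 1704 with cisplatin, and 1816, 1857 and 1927 with Pt-ttpy. The groups did not overlap, in the order DMSO, Pt-ttpy, cisplatin. It fell by 0.34 ± 0.09 SE on the log2 scale with cisplatin (adjusted p = 0.0200), lost without cisplatin 1 (adjusted p = 0.0565). With Pt-ttpy it changed by -0.12 ± 0.09 SE (adjusted p = 0.365). ACLY (ENSG00000131473, chr17:41866908-41930542) gave 877, 1009.9 and 809 CPM with DMSO, 694, 632 and 739.8 with cisplatin, and 766, 777 and 825 with Pt-ttpy. It fell by 0.38 ± 0.10 SE with cisplatin (adjusted p = 0.0239), lost without cisplatin 1 or cisplatin 2. The 7-library fit kept both calls, at -0.25 for SCD and -0.23 for ACLY (adjusted p = 0.000797 and 0.00406).

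FASN gave 1617, 2150.5 and 1619 CPM with DMSO, 1605, 1723 and 1639 with cisplatin, and 1637, 1477 and 1604 with Pt-ttpy. DMSO 2 was well above all other libraries. Its log2 changes were -0.12 with cisplatin and -0.19 with Pt-ttpy, and 0.01 and -0.04 with 7 libraries, where neither passed. The 95% interval with 9 libraries was -0.37 to 0.14 for cisplatin.

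ACSS2 (ENSG00000131069, chr20:34872146-34927962), which makes acetyl-CoA from acetate, had the largest log2 difference between the drugs among the 7 fatty acid enzymes. It gave 93.0, 99.4 and 78.0 CPM with DMSO, 80.9, 76.7 and 84.0 with cisplatin, and 109.7, 107 and 113 with Pt-ttpy. The Pt-ttpy libraries were above all others. The log2 difference between Pt-ttpy and cisplatin was 0.45 ± 0.11 SE (adjusted p = 0.124), which DESeq2's Wald test called. Against DMSO it was 0.29 ± 0.11 SE with Pt-ttpy (adjusted p = 0.0983) and -0.16 ± 0.11 SE with cisplatin (adjusted p = 0.312). With 7 libraries it rose with Pt-ttpy by 0.37 (adjusted p = 0.000440), and was higher than with cisplatin by 0.41 (adjusted p = 0.00118).

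The elongase ELOVL6 was called higher with both drugs with 7 libraries (0.16 and 0.13), and FADS1, a desaturase of polyunsaturated fatty acids, with Pt-ttpy (0.22). FADS2, the other such desaturase, gave 39.2, 58.3 and 40.5 CPM with DMSO, 49.8, 30.6 and 46.2 with cisplatin, and 36.1, 40.5 and 40.0 with Pt-ttpy. Its DMSO 2 value was the highest of the 9 libraries and its cisplatin 2 value the lowest. Its log2 change with cisplatin turned from -0.13 with 9 libraries, not called, to 0.27 with 7 (adjusted p = 0.0212). FADS1 and FADS2 exons overlap on opposite strands.

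**Figure D5:**
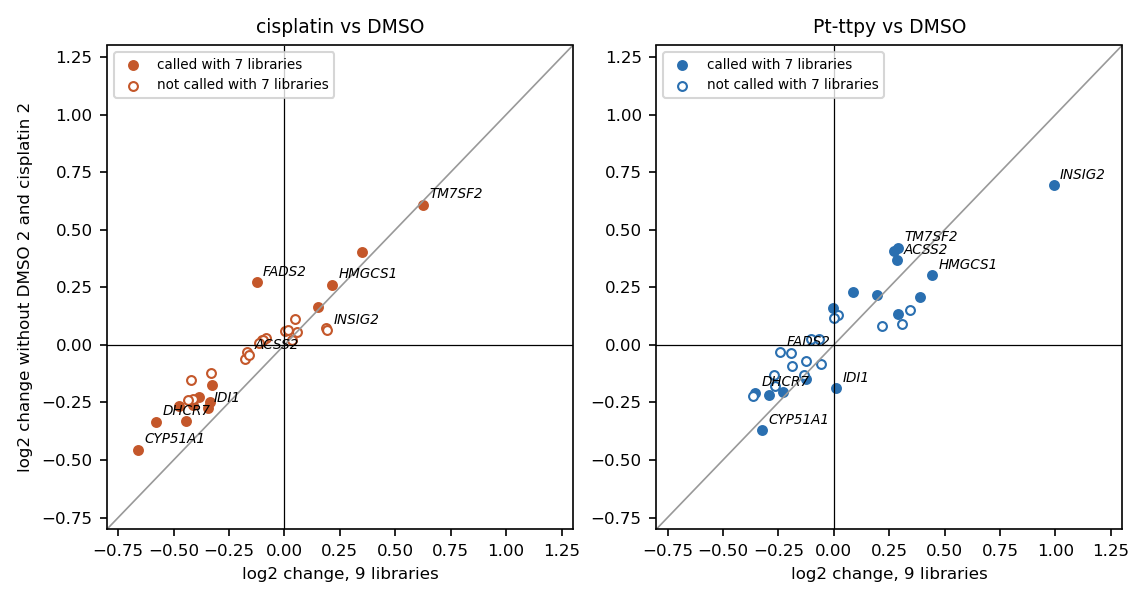
Fitted log2 change of each of the 32 genes with all 9 libraries (x axis) and without DMSO 2 and cisplatin 2 (y axis), for cisplatin and Pt-ttpy against DMSO, with the line of equal values and filled points for genes called with 7 libraries. DHCR7 and CYP51A1 stay below 0 on both axes with either drug, and FADS2 with cisplatin crosses from -0.13 to 0.27.

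The direct comparison of Pt-ttpy with cisplatin asks whether the drugs differ, at 5.5 µM and 0.6 µM. In it 26 of the 32 genes had a positive log2 difference, with a median of 0.18, where the median over all genes was 0.00. None was called with 9 libraries, in either direction, while 0.0578% of all genes were called higher and 0.456% lower. At an unadjusted p under 0.05 there were 5 higher and 1 lower (2.92% and 5.14% of all genes), and DESeq2's Wald test called 1 higher (ACSS2) and 0 lower, against 0.289% and 1.34%. The 5 were FDPS, INSIG1, INSIG2, SCD and ACSS2. Groups did not overlap for 16 genes higher and 2 lower, against 10.5% and 10.1% of all genes. Without DMSO 2 and cisplatin 2, INSIG2, SCD (0.18) and ACSS2 were called higher and FADS2 (-0.30) lower, against 2.37% and 2.83% of all genes, and the median fell to 0.08. SREBF2 did not differ past the threshold between the drugs, with a 95% interval of -0.34 to 0.18.

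The rest of the pathway was followed in 5 further lists, with counts over 9 libraries. They stand beside the shares of all genes called, 10.7% higher and 9.78% lower with cisplatin, and 5.59% and 6.45% with Pt-ttpy. Among 13 other sterol and isoprenoid enzymes, cisplatin lowered COQ2 (-0.40) and PDSS1 (-0.57), which make coenzyme Q, and Pt-ttpy lowered DHDDS (-0.50), which makes dolichol. Of the 9 fits that left out 1 library, 6 kept the call of COQ2, 4 that of PDSS1 and 2 that of DHDDS. Among 7 genes that process SREBP or its enzymes, ERLIN1 fell with cisplatin (-0.47). MBTPS2, a protease that releases SREBP, and RNF139, a ligase of this membrane, were not called.

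Of 7 LXR and efflux genes, 4 were called higher with cisplatin and 2 with Pt-ttpy, against 10.7% and 5.59% of all genes, and none lower, against 9.78% and 6.45%. ABCA1, which exports cholesterol from cells, gave 25.3, 20.2 and 26.4 CPM with DMSO, 67.4, 63.8 and 56.4 with cisplatin, and 54.4, 51.7 and 50.8 with Pt-ttpy. Both drug groups were far above DMSO. It rose by 1.38 ± 0.13 SE on the log2 scale with cisplatin and 1.12 ± 0.13 with Pt-ttpy (adjusted p = 6.84e-05 and 0.00128), in all 9 fits that left out 1 library for either drug. APOE, the lipid-carrying apolipoprotein, gave 97.9, 112 and 95.8 CPM with DMSO, 279, 463 and 252 with cisplatin, and 163, 175 and 158 with Pt-ttpy. It rose by 1.70 with cisplatin (adjusted p = 0.000298) and 0.70 with Pt-ttpy (adjusted p = 0.0333), and was lower with Pt-ttpy than with cisplatin (-1.003, adjusted p = 0.0402), where the Pt-ttpy call against DMSO and the one against cisplatin each held in 3 of the 9 fits that left out 1 library. NR1H3, which encodes one of the LXR receptors, rose with cisplatin (1.30, adjusted p = 0.00448) and missed with Pt-ttpy (0.76, adjusted p = 0.0542). NR1H2, which encodes the other and is named here after its values were seen, gave 42.3, 57.9 and 40.8 CPM with DMSO, 44.7, 54.1 and 39.2 with cisplatin, and 44.2, 47.5 and 50.8 with Pt-ttpy. Its groups overlapped, and it was not called with either drug (-0.03 and 0.02, adjusted p = 0.912 and 0.961). ABCG1 rose with cisplatin (1.08), but not with 7 libraries (0.58, adjusted p = 0.113), and 2 of the 9 fits that left out 1 library kept its call.

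Among 11 genes of sterol uptake, lysosomal egress and esterification, the lysosomal lipase LIPA rose with cisplatin (0.58, adjusted p = 0.00282) and with Pt-ttpy (0.56, adjusted p = 0.00831), the latter lost without Pt-ttpy 2. STARD3, a late endosomal sterol carrier, fell with both drugs (-0.42 and -0.51). The STARD3 call with cisplatin was kept in 2 of the 9 fits that left out 1 library, and that with Pt-ttpy in 6. VLDLR rose with Pt-ttpy (1.40), a call kept in 3 of the 9 fits that left out 1 library. Of 23 other fatty acid and glycerolipid genes, 21 were tested, and cisplatin gave 3 higher and 2 lower where Pt-ttpy gave 2 higher and 1 lower, counts near the shares of all genes. ACACB and SCD5, a carboxylase and a desaturase, rose with both drugs (0.57 and 0.61, 0.55 and 0.54), ACACA, the main carboxylase of synthesis, rose with cisplatin (0.35), and AGPAT2, an acyltransferase of glycerolipids, fell with both (-0.58 and -0.68). The ACACA call was lost without DMSO 1 or DMSO 3, and the Pt-ttpy calls of ACACB, SCD5 and AGPAT2 were each lost without any 1 Pt-ttpy library. Far fewer of all genes were called with Pt-ttpy in those last fits.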

How the data were processed

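A single table of raw counts was deposited by the authors, with 9 columns of libraries and 24542 rows, of which 19974 carry Ensembl identifiers and 4568 are named newGene. The genome build was GRCh38, per the submitters' processing notes. RNA was extracted with a column kit and made into libraries with a SMARTER mRNA kit, per the labels' protocols. Aligner, counter and strandedness: not given in the sources used here. The label Cispt was taken to mean cisplatin. The analysis used edgeR 4.0.16 in R 4.3.3, with filterByExpr (minimum count 10), TMM factors, robust quasi-likelihood fits with 1 mean per group over all 9 libraries, a prior count of 0.125, and Benjamini-Hochberg adjustment over 15558 genes, with calls at an adjusted p under 0.05. Adjusted p-values come from that edgeR test unless the text names DESeq2 (version 1.42.0, Wald test). CPM values use TMM factors, and CPM per kb divides by the summed exon length in GENCODE 29, which also gave gene positions, exon overlaps and transcript GC content. Intervals are 95% intervals of the fit. The fits were tested on simulated data with 1 spread for all genes and changes of 1 or 2 log2 units. That simulation had no difference between libraries tied to GC content, so it cannot speak to DMSO 2 and cisplatin 2. No 2 libraries agreed within sampling noise. The 32 genes and the further lists were chosen with earlier results of these data known, as was the fit without DMSO 2 and cisplatin 2, and the corrections for GC content were chosen after seeing the data. All 32 genes are named, and up to 4 of each further list by smallest adjusted p. Some genes of the pathway and of these lists are not reported here. Promoter windows are from RefSeq, with no window used for FASN, SQLE, FDFT1 and ACAT2.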

Additional observations from a re-analysis of the deposited data

How the results depend on the processing

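For Pt-ttpy higher (1 with all libraries) the count was 2 with upper-quartile factors, library totals or the replicate block, 6 with the GC correction with or without the replicate block, and 10 without DMSO 2 and cisplatin 2. For Pt-ttpy lower (0) it was 1 with the 6 libraries of the contrast and 6 without DMSO 2 and cisplatin 2. For cisplatin higher (1) it was 2 with upper-quartile factors, library totals, the 1 CPM filter, DESeq2's Wald test, the replicate block, or the GC correction with or without the block, 0 with the 6 libraries of the contrast, and 5 without DMSO 2 and cisplatin 2. For cisplatin lower (7) it was 4 with upper-quartile factors, 3 with library totals and 1, DHCR7, with the 6 libraries of the contrast. Under the replicate block, 9 were lower. Over all genes, the calls lower with cisplatin went from 1521 to 395 with the 6 libraries and to 1797 under the block. For Pt-ttpy against cisplatin, higher (0), it was 1 (ACSS2) with DESeq2's Wald test or the 6 libraries of the contrast, 2 (INSIG2 and ACSS2) with the GC correction with or without the block, and 3 without DMSO 2 and cisplatin 2, which also gave 1 lower. The 9 correlations of same-numbered libraries ran from -0.04 to 0.22, and those of differently numbered libraries from -0.14 to 0.07. With 3 libraries per group, these values cannot decide whether the replicate numbers pair the samples. Leaving out 1 library at a time gave 0 to 3 higher and 0 to 2 lower with Pt-ttpy, 0 to 2 higher and 3 to 9 lower with cisplatin, and 0 to 1 higher and 0 lower for Pt-ttpy against cisplatin. Leaving out DMSO 3 gave 0 higher with either drug, and leaving out cisplatin 1 or any Pt-ttpy library gave 0 higher with Pt-ttpy. Calls over all genes fell in these fits too. With Pt-ttpy they were 870 higher and 1004 lower with all libraries, but 143 to 212 and 42 to 87 without 1 Pt-ttpy library. They were 750 and 826 without cisplatin 1, and 494 and 656 without DMSO 3. A call lost there is thus not particular to these genes. Only leaving out cisplatin 3 kept 7 or more lower with cisplatin (9). Over all genes, cisplatin gave 915 to 1399 lower when 1 library was left out, against 1521 with all libraries. The median log2 change with cisplatin moved from -0.14 to -0.0108 without DMSO 2 and cisplatin 2. Without those libraries 3 genes changed sign and were called: FADS2 with cisplatin (0.27), and IDI1 (-0.19) and SREBF1 (0.16) with Pt-ttpy, where the cause was not tested. Over all single-gene values and settings, 1891 kept their side of the threshold, 68 came to pass it and 54 no longer passed it. Some of the 1891 changed sign without being called, such as FDPS with Pt-ttpy (-0.10 with 9 libraries and 0.03 with 7). The scarcest gene, INSIG2, had 200 to 770 counts per library.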
